A study of Mus musculus with 7 samples.

Results

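Plaque-associated microglia genes are taken here as a named list of 35 mouse genes, from marks of microglia around amyloid plaques to general leukocyte genes. The list was chosen with earlier results of these data known, so a rise against WT is no independent test of it. The count table lists 33 of the 35 genes among its 20859, and Irf8 and Lilrb4a are not analysed here. They were followed in cortex and hippocampus of FAD mice, which carry familial Alzheimer's disease transgenes, and of wild-type (WT) mice, in a study of CD38, an NAD-consuming ectoenzyme, as a target. The 3 groups were FAD mice of the CD38 treatment (FAD CD38: 7 cortices, 7 hippocampi), FAD mice given IgG (FAD IgG: 7 and 7) and WT mice given PBS (WT: 9 and 8). The sample sheet names the agents as CD38, IgG and PBS and no more. Every FAD mouse had CD38 or IgG and every WT mouse PBS, so genotype and injection cannot be told apart against WT. The labels give no age, sex or transgene promoter. A replicate is 1 mouse, and its cortex and hippocampus were read in separate wells.

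Microglia are the resident macrophages of the brain. Near plaques they take on a state often called disease-associated microglia, in which the receptor Trem2 and its adaptor Tyrobp are needed for the full program in mice, and in which genes of lysosomes, phagocytosis, lipid handling and secreted factors rise. Part of this set serves the phagocyte NADPH oxidase, an enzyme complex that makes superoxide. The RNA here came from whole tissue, so more microglia and more RNA per microglial cell cannot be told apart in any value below.

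Libraries were made by mcSCRB-seq, a method that reads the 3' end of each transcript with well barcodes, in 7 pools that each held mice of several groups. Total counts ran from 1270918 to 5101368 per well over 47 wells of 24 mice, and levels are given as CPM, counts scaled to 1000000 per well. Tissue labels were checked in WT mice with genes known for each region: C1ql2 and Spink8 were 5.33 and 4.63 log2 units higher in hippocampus than in cortex, and Rspo1 and Myl4 differed by -3.18 and -3.13. Thy1, whose regulatory sequence drives the transgenes of several Alzheimer's mouse lines, separated the genotypes, with 433 to 1161 CPM in hippocampus of FAD CD38 mice, 731 to 1091 in FAD IgG mice and 132 to 177 in WT mice. For 1 mouse of pool 8 the well name and the sample sheet disagreed on IgG or CD38, and it entered no comparison; its 33 genes summed to 1542 CPM in cortex and 1575 in hippocampus. Ribosomal RNA took over 10% of the counts in 6 wells: the hippocampus of FAD CD38 replicate 4 (10.3%, with 1428454 counts in all), the cortex and hippocampus of FAD IgG replicate 4 (10.8% and 14.1%), the cortex of FAD IgG replicate 5 (12.6%, with the lowest total, 1270918), the hippocampus of FAD IgG replicate 7 (10.2%) and that of WT replicate 9 (20.6%). With the ribosomal RNA share as a covariate, 29 members were higher in FAD IgG than in WT mice in cortex and 29 in hippocampus, against 28 and 29 without it. Calls over all genes grew more: 794 of 12968 were higher in cortex and 799 of 12728 in hippocampus, against 433 and 570. Lower were 393 and 228 of all genes, against 69 and 53.

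The start regions of 5 members are shown because each holds TGANTCA, a loose form of the AP-1 core of Fos and Jun factors, close to the start of the gene. The middle base is G or C in Itgax, Gpnmb and Cd68, and A or T in Cst7 and Igf1, outside the usual core. Each line gives 100 bases before the start and 20 from it on, 5′ to 3′ on the strand of the gene, from RefSeq on GRCm38.p6, with searched motifs in capitals.
Cst7: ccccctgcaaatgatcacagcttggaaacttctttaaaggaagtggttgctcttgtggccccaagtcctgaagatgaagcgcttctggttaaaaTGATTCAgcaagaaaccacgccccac
Itgax: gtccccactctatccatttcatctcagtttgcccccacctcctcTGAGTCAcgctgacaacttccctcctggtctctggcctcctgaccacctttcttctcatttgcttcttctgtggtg
Gpnmb: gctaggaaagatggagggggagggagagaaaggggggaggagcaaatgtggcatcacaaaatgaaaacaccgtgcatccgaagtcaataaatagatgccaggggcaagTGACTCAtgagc
Igf1: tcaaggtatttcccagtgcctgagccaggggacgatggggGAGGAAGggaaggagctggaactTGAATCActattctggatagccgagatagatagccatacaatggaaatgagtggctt
Cd68: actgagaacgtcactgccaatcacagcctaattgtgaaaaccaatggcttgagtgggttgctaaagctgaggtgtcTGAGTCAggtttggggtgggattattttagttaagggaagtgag
They lie on the plus strand at chr2:150570315-150570434 (Cst7), chr7:128129450-128129569 (Itgax), chr6:49036418-49036537 (Gpnmb) and chr10:87861011-87861130 (Igf1), and on the minus strand at chr11:69666151-69666270 (Cd68). The capitals in Igf1 that read GAGGAAG are a core of PU.1, the transcription factor that microglia depend on.

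RefSeq windows of 250 bases before to 50 after the start were at hand for 27 members, and both strands were searched. The loose AP-1 form TGANTCA was found in 8 of the 27 (29.6%), namely the 5 above with Cd84, Cybb and Bcl2a1b. It was found in 6.7% of 13468 listed genes with such a window. Cybb and Bcl2a1b, like Cst7 and Igf1, have A or T as the middle base. The PU.1 core GAGGAAG was found in 7 (25.9%; Spp1, Axl, Igf1, Pld4, Cd53, Laptm5 and Bcl2a1b), against 15.8% of all. The interferon-response element core GAAANNGAA was found in 5 (18.5%; Spp1, Cd9, Cd84, Cybb and Ncf1), against 8.9%. Neither the E-box CACGTG (10.7% of all) nor TCATGTGA, a site of the Mitf family (0.9% of all), was found in a member's window. These are matches of letters only, and only Igf1 and Bcl2a1b held both TGANTCA and the PU.1 core.

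In FAD IgG mice the set rose nearly as a whole. Ly9 was under the filter on low counts, and of the 32 members tested 28 were higher and 0 lower than in WT cortex, and 29 were higher and 0 lower in hippocampus (edgeR quasi-likelihood test, pool as a covariate, Benjamini-Hochberg adjusted p under 0.05 over all genes). Among all genes tested 3.34% were higher and 0.532% lower in cortex, and 4.48% higher and 0.416% lower in hippocampus. Some members, such as Itgax, Clec7a, Cybb, Hpse, Ptprc and Cd48, had at most 2.1 CPM in any WT mouse. They passed the filter only through the FAD groups. A call of lower than WT was therefore hardly open to them, here or in FAD CD38 mice. The median log2 fold change of the 32 was 2.45 in cortex (range -0.08 to 6.79; 0.01 over all genes) and 2.78 in hippocampus (-0.32 to 6.55; 0.00 over all genes). Each FAD IgG mouse was above each WT mouse for 25 of the 32 in cortex and 29 in hippocampus, which held for 1.89% and 2.95% of all genes. Within pools, the mean of FAD IgG was above that of WT in all 6 shared pools for 29 of the 33 listed members in cortex and 30 in hippocampus. The share of all genes for which this held was not counted, so these 2 counts have no background to be read against. The calls rest on mice within 7 pools, and leaving out any pool gave 27 to 29 members higher in cortex and 29 in hippocampus. Over all genes these fits gave 352 to 461 higher in cortex and 414 to 645 in hippocampus.

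FAD CD38 mice differed from WT to much the same extent: 28 members were higher and 0 lower in cortex, and 29 higher and 0 lower in hippocampus, with median log2 fold changes of 2.39 and 2.77. Of all genes, 3.3% were higher and 1.23% lower in cortex, and 4.56% higher and 0.754% lower in hippocampus. Every FAD CD38 mouse was above every WT mouse for 26 of the 32 in cortex and 25 in hippocampus, against 1.6% and 2.17% of all genes. FAD CD38 replicate 4 was the lowest FAD mouse for the summed level in both regions, and without it the counts were again 28 and 29. Of all genes, 387 of 13118 were then higher in cortex and 591 of 12840 in hippocampus. Both comparisons share the WT mice, so they are not independent of each other.

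**Figure D1:**
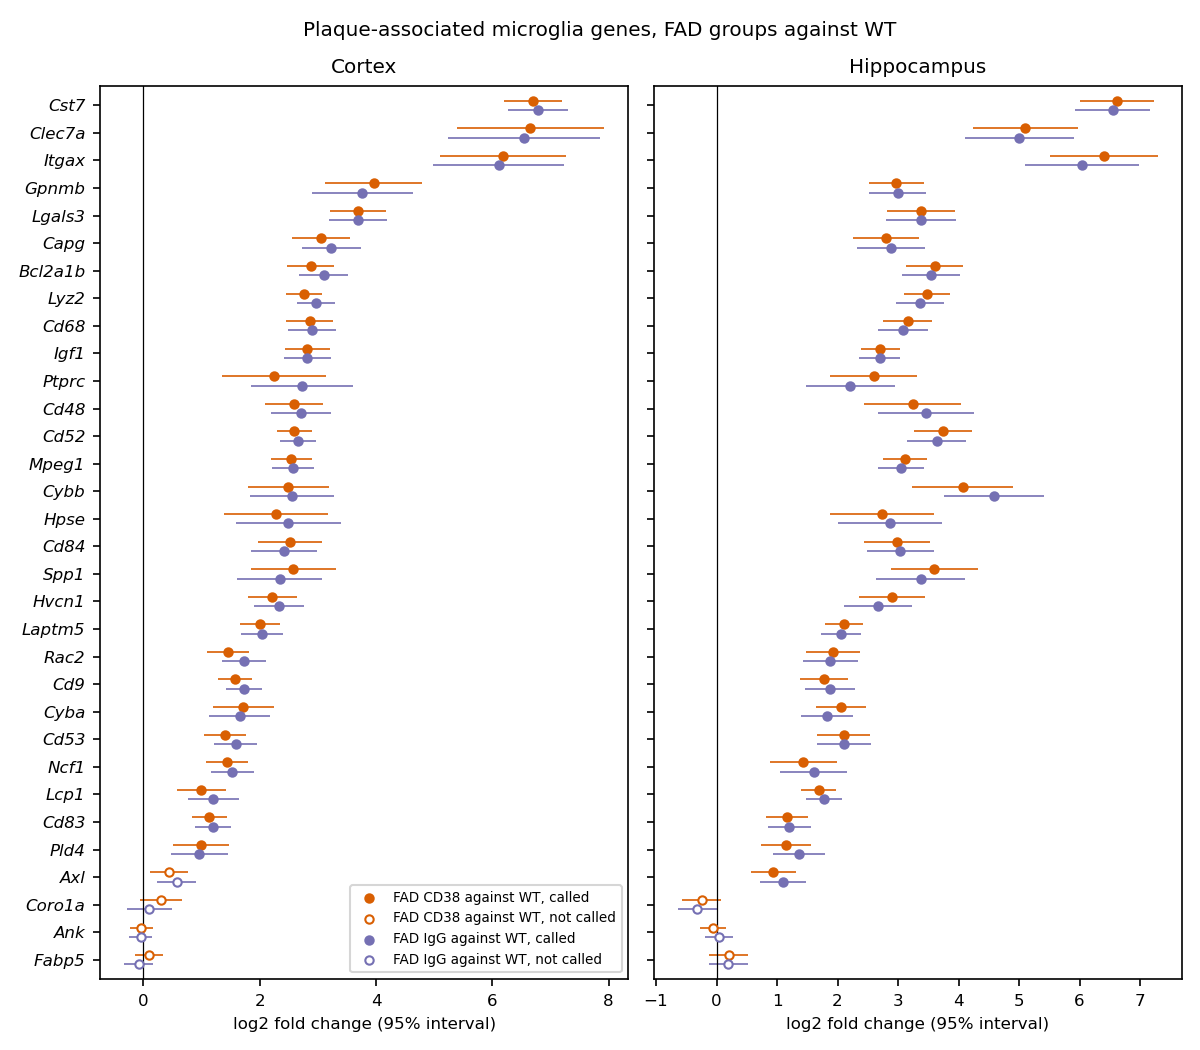
Log2 fold changes against WT (x axis) of the 32 members tested, in FAD CD38 and FAD IgG mice, in cortex (left) and hippocampus (right); points are edgeR estimates, bars 95% intervals, and filled points passed an adjusted p of 0.05. Cst7, Clec7a and Itgax lie above 5 log2 units in both regions, and the intervals of Coro1a, Ank and Fabp5 include 0 in both.

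Secreted proteins and plaque-contact markers all rose, 6 of 6 in both regions. Cst7 encodes cystatin F, an inhibitor of lysosomal cysteine proteases, and had the smallest p of all members. In cortex it had a lowest, median and highest level of 138, 189 and 216 CPM in FAD IgG mice and of 0.606, 1.72 and 3.35 CPM in WT mice, and in hippocampus of 131, 172 and 219 CPM against 0.629, 1.64 and 4.29 CPM. The groups lay far apart, with log2 fold changes of 6.79 ± 0.25 (SE, adjusted p = 1.67e-14) in cortex and 6.55 ± 0.30 (adjusted p = 8.4e-11) in hippocampus. Lyz2, the lysozyme of myeloid cells, had 122, 173 and 199 CPM in cortex of FAD IgG mice against 15.5, 23.1 and 29.4 in WT mice. Its log2 fold change was 2.96 ± 0.16 in cortex and 3.37 ± 0.19 in hippocampus; 16.9% of the 50-base windows in its last 500 bases are shared with Lyz1, which stayed at or under 4.72 CPM in every mouse of the 3 groups. Igf1, a growth factor, had 20.5, 31.6 and 44.0 CPM in cortex of FAD IgG mice and 2.28, 4.47 and 6.502 in WT mice, and no values overlapped in either region (log2 fold changes 2.82 ± 0.20 and 2.70 ± 0.16).

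Lgals3 (galectin-3, a binder of sugars) rose by 3.70 ± 0.24 log2 units in cortex and 3.39 ± 0.28 in hippocampus, and Hpse (heparanase, which cuts heparan sulfate) by 2.49 ± 0.44 and 2.87 ± 0.41. Spp1 (osteopontin, a secreted phosphoprotein) was the most uneven member in FAD CD38 cortex, with an SD of 71.7% of the mean. In FAD IgG cortex its SD was 32.6% of the mean, under that of Hpse (37.3%). Spp1 averaged 132 ± 94.8 CPM (SD, n = 7) and spanned 53.6 to 302 CPM in FAD CD38 cortex, and spanned 59.0 to 154 in FAD IgG cortex. All of these mice lay above WT cortex, at 13.5 to 26.8 CPM. The log2 fold change of Spp1 in FAD IgG mice was 2.34 ± 0.35 in cortex and 3.37 ± 0.35 in hippocampus.

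Surface receptors and adhesion proteins numbered 11. Of the 10 tested, 9 were higher in cortex and 10 in hippocampus of FAD IgG mice. Itgax, the integrin alpha X chain used as a mark of plaque-associated microglia, was nearly unread in WT: 179 counts in cortex of the 7 FAD IgG mice stood against 3 in the 9 WT mice, a ratio per total of 78.7 with a 95% counting interval of 26.5 to 385. In hippocampus these were 150 against 2 counts (ratio 90.3, interval 24.6 to 752). Clec7a, a receptor for beta-glucan, gave 338 against 4 counts in cortex (ratio 111, interval 43.1 to 411) and 382 against 14 in hippocampus (ratio 32.9, interval 19.3 to 60.7). These intervals cover counting error only. With so few WT counts, the fitted log2 fold changes of both genes (6.11 ± 0.54 and 6.55 ± 0.63 in cortex) depend on how the fit treats zeros. Ly9, a receptor of the SLAM family, was too low to test. In cortex 29 counts of FAD IgG mice stood against 8 of WT mice (ratio 4.78, counting interval 2.13 to 12.1), and the mice overlapped. In hippocampus these were 24 against 0 counts. A floor of 3 counts over the WT group would give a ratio of 9.63, which leaves out counting error in the 24.

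Cd52, a small glycoprotein of leukocyte surfaces, had 53.8, 60.4 and 74.0 CPM in cortex of FAD IgG mice against 7.12, 8.89 and 16.4 in WT mice, and 63.5, 75.1 and 111 CPM in hippocampus against 1.65, 6.87 and 9.67. FAD IgG and WT mice did not overlap in either region (log2 fold changes 2.66 ± 0.15 and 3.64 ± 0.24). Cd9, a tetraspanin, started from a higher base, with 163, 197 and 244 CPM in cortex of FAD IgG mice and 45.5, 57.0 and 76.9 in WT mice (log2 fold change 1.73 ± 0.15). Cd84, Cd48 and Cd53, which sit on many leukocytes, rose by 2.41, 2.71 and 1.59 log2 units in cortex and by 3.04, 3.46 and 2.11 in hippocampus. Ptprc, the leukocyte tyrosine phosphatase CD45, and Cd83, a surface protein of activated antigen-presenting cells, rose by 2.73 and 1.20 in cortex and by 2.21 and 1.21 in hippocampus.

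Axl, a receptor that helps engulf dying cells, was the receptor nearest to WT. In cortex it had 14.95, 20.3 and 34.8 CPM in FAD IgG mice and 9.62, 13.1 and 19.7 in WT mice, and the ranges overlapped. The cortical log2 fold change was 0.57 ± 0.17 with an edgeR adjusted p of 0.0507, which misses the threshold; over the 19 alternatives its adjusted p ran from 0.013 to 0.349 and passed in 6. In hippocampus Axl had 16.4, 27.4 and 31.4 CPM against 11.02, 11.95 and 16.02, with no overlap, and passed (1.09 ± 0.18, adjusted p = 4.21e-04).

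**Figure D2:**
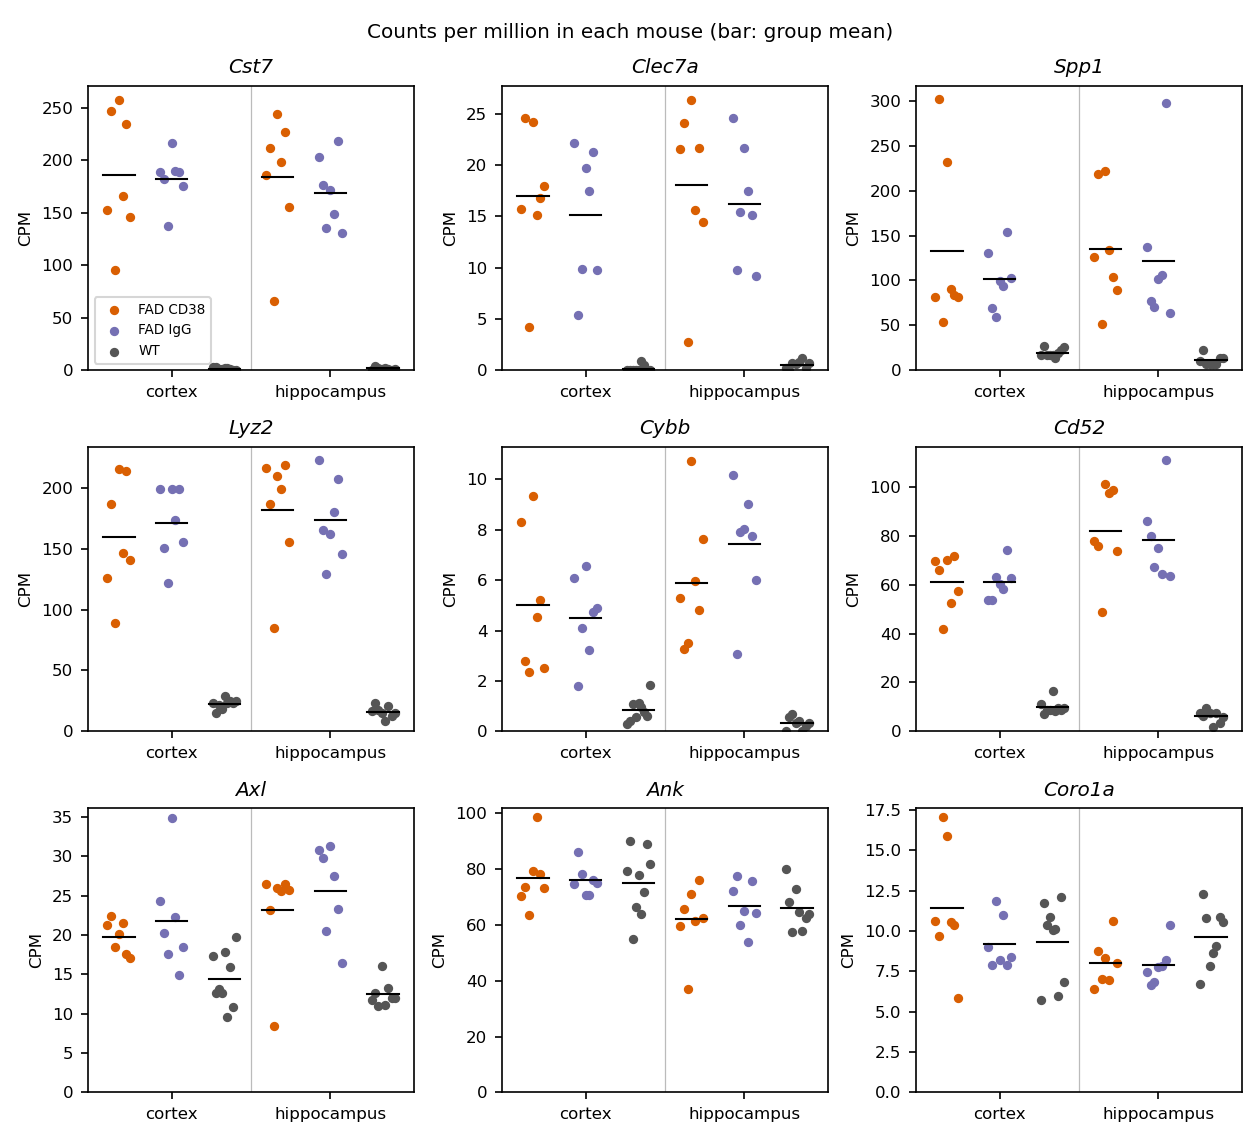
Level in CPM (y axis, linear from 0) of 9 members in each mouse of FAD CD38, FAD IgG and WT groups, in cortex and hippocampus; each point is 1 mouse and each bar the group mean. Cst7, Clec7a, Spp1, Lyz2, Cybb and Cd52 are high in both FAD groups, Axl is partly separated, and Ank and Coro1a overlap in all groups.

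The endolysosome group rose in full, 5 of 5 in both regions. Mpeg1, the pore-forming perforin-2 of phagosomes, had 20.9, 29.9 and 37.8 CPM in cortex of FAD IgG mice and 2.85, 5.03 and 5.98 in WT mice. The mice of the groups did not overlap, and the log2 fold changes were 2.58 ± 0.18 in cortex and 3.05 ± 0.18 in hippocampus. Cd68, a sialomucin of late endosomes, had 82.0, 116 and 160 CPM against 12.7, 15.6 and 17.7 in cortex (2.90 ± 0.20), and Laptm5, a membrane protein of lysosomes, 107, 173 and 211 CPM against 30.8, 43.4 and 47.3 (2.05 ± 0.17). Gpnmb, a membrane glycoprotein found in lysosomes, rose by 3.77 ± 0.41 in cortex and 2.99 ± 0.23 in hippocampus. Pld4, an endolysosomal nuclease, rose least (0.96 ± 0.24 in cortex, adjusted p = 0.0203); its cortical call was lost with voom and sample quality weights (adjusted p = 0.0841) and without pool 5 (0.0773) or pool 8 (0.0526).

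All 5 members of the oxidase group rose in both regions: Cybb and Cyba, the membrane subunits, Ncf1 and Rac2, cytosolic partners, and Hvcn1, the proton channel that balances their charge. Hvcn1 had 7.38, 9.85 and 10.7 CPM in cortex of FAD IgG mice and 1.05, 2.08 and 2.98 in WT mice (2.33 ± 0.21). Rac2 had 9.02, 16.6 and 17.3 CPM against 2.89, 4.81 and 6.27 (1.73 ± 0.18), and again no mice overlapped. Cyba and Ncf1 rose by 1.66 ± 0.25 and 1.53 ± 0.18 in cortex and by 1.83 ± 0.20 and 1.61 ± 0.27 in hippocampus. Cybb was low everywhere, with 1.80, 4.72 and 6.57 CPM in cortex of FAD IgG mice against 0.285, 0.780 and 1.84 in WT mice, where the lowest FAD IgG mouse fell just under the highest WT mouse (2.55 ± 0.35).

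Capg and Lcp1, which cap and bundle actin filaments, rose in both regions, by 3.23 ± 0.25 and 1.20 ± 0.21 log2 units in cortex and by 2.89 ± 0.27 and 1.78 ± 0.15 in hippocampus. Coro1a, an actin-binding protein of leukocytes, did not pass in either. It had 7.87, 8.42 and 11.9 CPM in cortex of FAD IgG mice and 5.70, 10.1 and 12.1 in WT mice (0.11 ± 0.19, adjusted p = 0.849), and 6.69, 7.78 and 10.4 against 6.70, 9.84 and 12.3 in hippocampus (-0.32 ± 0.16, adjusted p = 0.357). Its 3' end overlaps Bola2 on the other strand in GENCODE M21, as those of Cd52, Ank, Cyba, Hvcn1, Ly9 and Ncf1 overlap other genes; whether reads were counted by strand is not given, so reads of such pairs cannot be told apart. The survival gene Bcl2a1b, a relative of Bcl2, rose by 3.10 ± 0.20 and 3.55 ± 0.23, yet 86.9% of its 50-base windows are shared with its copies, so reads may be split among them; Bcl2a1d rose by 3.02 ± 0.25 and 3.51 ± 0.30, and Bcl2a1a by 2.51 ± 0.40 and 2.88 ± 0.51.

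Neither metabolic member passed. Ank, a transporter of pyrophosphate and citrate, had 70.9, 75.0 and 86.2 CPM in cortex of FAD IgG mice and 55.1, 77.9 and 90.1 in WT mice (-0.05 ± 0.10, adjusted p = 0.87). In hippocampus its log2 fold change was 0.05 ± 0.11. Fabp5, a fatty-acid binding protein, had 64.1, 69.2 and 94.3 CPM against 63.5, 75.3 and 89.0 in cortex (-0.08 ± 0.12, adjusted p = 0.81) and a fold change of 0.20 ± 0.16 in hippocampus. Both genes were well read in WT tissue, and their mice overlapped in every comparison.

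Related lists put these values in context. Of 25 other genes of the disease-associated state, 20 of 23 tested were higher and 0 lower in cortex (median 0.97), and 22 of 24 and 0 in hippocampus (median 1.19). Among them, Ccl6 and Ccl3, chemokines, rose by 3.78 ± 0.16 and 5.32 ± 0.34 in cortex, and Tyrobp and the protease Ctss by 2.51 ± 0.15 and 2.05 ± 0.12. Genes of resting microglia were also higher in FAD IgG mice, 11 of 18 in cortex (median 0.94) and 14 of 18 in hippocampus (median 1.19), with 0 lower. Gpr34, Siglech and Cx3cr1 rose by 1.42 ± 0.17, 1.24 ± 0.15 and 0.93 ± 0.12 in cortex. P2ry12 (0.59 ± 0.21, adjusted p = 0.154) and Tmem119 (0.36 ± 0.18, adjusted p = 0.349), named after their values were seen as known marks of resting microglia, did not pass in cortex.

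Genes listed as marks of other blood cells were also measured, and their part in the results was not tested. Brain cells can also express some of them, so their sums in whole tissue do not measure blood cells. The 5 listed neutrophil genes summed to at most 3.68 CPM in any mouse, and none could be tested. The 11 listed T and NK cell genes summed to 10.2 to 15.4 CPM in hippocampus of FAD IgG mice against 3.35 to 9.00 in WT mice. In cortex these were 39.2 to 77.4 against 57.7 to 71.8 CPM. Within WT mice the 2 tested had a median of -4.81 log2 units in hippocampus against cortex. Which cells the cortical counts came from was not tested. The 4 B cell genes summed to 31.9 to 63.9 CPM in hippocampus of FAD IgG mice against 12.8 to 34.9 in WT mice, where Ighm rose (1.10 ± 0.21, adjusted p = 0.00161), and to 55.9 to 129 CPM against 72.6 to 110 in cortex. The 9 border macrophage genes summed to 9.70 to 15.4 CPM against 6.43 to 13.7 in hippocampus and to 19.6 to 22.6 against 12.99 to 22.9 in cortex. None of 4 tested monocyte genes rose in either region. The 5 listed genes summed to 28.0 to 43.5 CPM against 34.0 to 67.3 in hippocampus and to 39.5 to 80.4 against 49.2 to 79.9 in cortex. Nr4a1, on this list but not particular to monocytes, fell in hippocampus (-0.74 ± 0.15, edgeR adjusted p = 0.00354). The 5 dendritic cell genes summed to 5.02 to 8.19 CPM against 5.03 to 8.10 in hippocampus and to 1.97 to 11.9 against 7.12 to 13.4 in cortex, and the 1 tested did not pass. Of the 10 cell-cycle genes, 2 were tested in cortex and 1 in hippocampus, and 0 passed. The 10 summed to 11.9 to 28.9 CPM in hippocampus of FAD IgG mice against 7.0 to 17.7 in WT mice. In cortex they summed to 10.4 to 18.0 against 8.86 to 21.6 CPM. Among brain cells, 2 of 7 astrocyte genes rose in cortex and 4 of 7 in hippocampus, led by Gfap (3.39 ± 0.18 and 2.74 ± 0.14). The oligodendrocyte gene Cldn11 rose in both regions (0.91 ± 0.14 and 1.07 ± 0.13), the only 1 of its 7, and 0 of 6 neuron genes and 0 of 8 and 7 endothelial and mural genes tested passed.

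The study's main contrast, FAD CD38 against FAD IgG, called 0 of the 32 members in cortex, in hippocampus or over the mean of both regions (edgeR for each region, limma for the mean, adjusted p = 1 for each member). It called 0% of all genes higher and 0% lower, in cortex, hippocampus and the mean alike. At an unadjusted p under 0.05 there were 0 members in each of the 3 fits, against 195, 197 and 195 of all genes (1.5%, 1.55% and 1.45%). DESeq2 likewise called 0 members in each region.

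The estimates over both regions lay near 0. They ran from -0.29 for Cybb (95% interval -0.74 to 0.17) to 0.30 for Itgax (-0.14 to 0.74) on the log2 scale, with a median of -0.04 over the members. For Cst7 the difference was -0.04 (-0.32 to 0.25), and for Cd68 0.01 (-0.28 to 0.29). Spp1, uneven between mice, had 0.20 (-0.25 to 0.65), and Hpse, of few counts, had the widest interval (-0.82 to 0.52). Per region, Cst7 had a lowest, median and highest level of 95.3, 166 and 258 CPM in cortex of FAD CD38 mice and 138, 189 and 216 in FAD IgG mice, and 66.5, 198 and 244 CPM against 131, 172 and 219 in hippocampus. The FAD CD38 mice spread wider than the FAD IgG mice at both ends in cortex. A p that misses the threshold does not show that the treatments act alike, and each interval above gives the sizes that remain possible for that gene; without FAD CD38 replicate 4 the median of the members was 0.03.

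**Figure D3:**
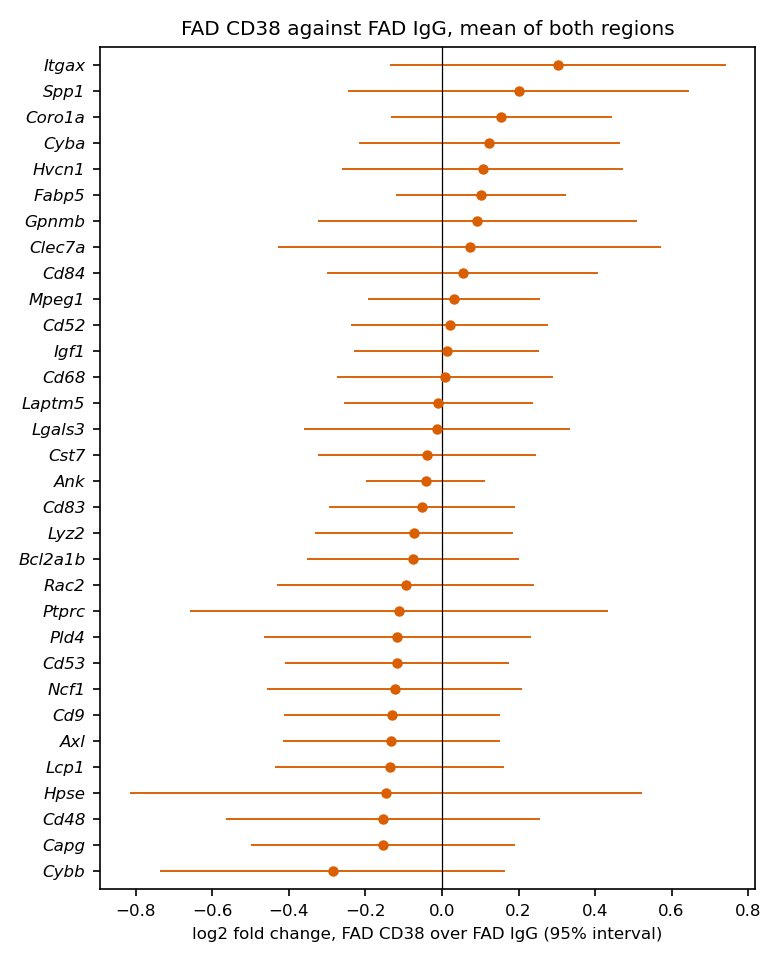
Log2 fold change of FAD CD38 over FAD IgG (x axis), as the mean of cortex and hippocampus, for the 32 members tested; points are limma estimates and bars 95% intervals. Each interval includes 0, and the estimates run from -0.29 (Cybb) to 0.30 (Itgax).

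Summed over the 33 listed members, cortex held 992, 1486 and 2161 CPM (lowest, median, highest) in FAD CD38 mice, 1224, 1532 and 1855 in FAD IgG mice and 381, 447 and 486 in WT mice. In hippocampus these were 825, 1771 and 2137 CPM in FAD CD38 mice, 1282, 1647 and 2199 in FAD IgG mice and 262, 416 and 472 in WT mice. All FAD mice were above all WT mice in both regions. FAD CD38 replicate 4 was the lowest FAD mouse in each region, at 992 and 825 CPM.

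**Figure D4:**
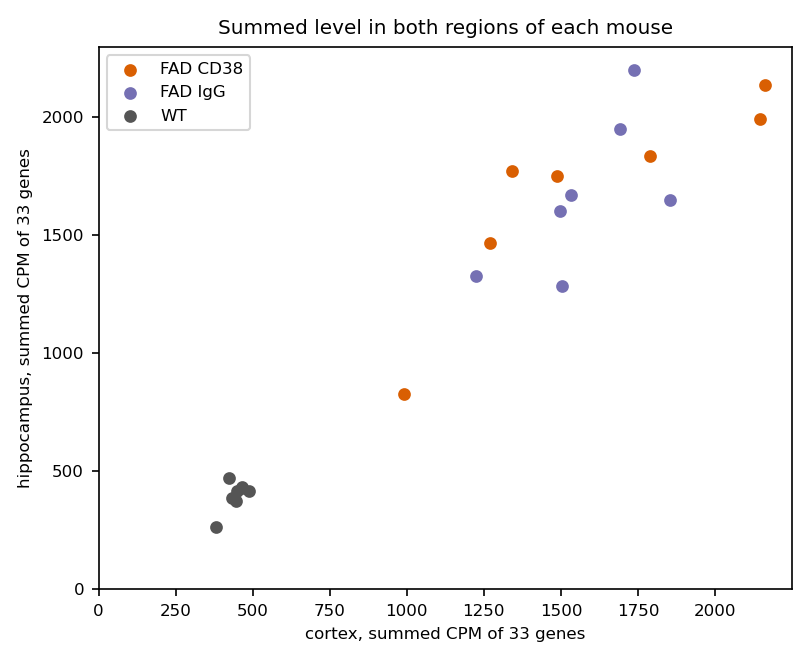
Summed level of the 33 listed members in cortex (x axis, CPM) and hippocampus (y axis, CPM) of each mouse with both regions, colored by group. WT mice lie at or under 486 CPM in cortex and 472 in hippocampus, and the lowest FAD point is FAD CD38 replicate 4 (992 and 825 CPM).

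Whether the FAD effect differed between regions was tested as the fold change of FAD IgG over WT in hippocampus minus that in cortex (limma, with the mouse as a correlated block). Of the 32 members 2 passed, both higher in hippocampus, and 0 were lower, while 0.149% of all genes were higher and 0.0149% lower. Cd52 had a difference of 1.13 ± 0.21 log2 units (adjusted p = 0.00461) and Cybb of 1.95 ± 0.40 (adjusted p = 0.0177). Cybb levels in hippocampus were 3.07, 7.90 and 10.2 CPM in FAD IgG mice and 0, 0.334 and 0.675 in WT mice, on 9 WT counts in all. Each of the 7 FAD IgG mice had more Cybb in hippocampus than in cortex. Cybb no longer passed with edgeR and each mouse as a fixed block (adjusted p = 0.115), with the pool left out of the model (0.225), or without pool 5 (0.0653), pool 8 (0.166) or pool 9 (0.232), and Cd52 did not without pool 8 (0.0876).

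The next differences were 1.08 ± 0.34 for Spp1 (adjusted p = 0.374) and 1.02 ± 0.37 for Cd48 (adjusted p = 0.5); Clec7a had the lowest, -1.11 ± 0.54 (adjusted p = 0.719). In all 12 members had an unadjusted p under 0.05, as did 928 of all genes tested (6.9%). The difference of FAD CD38 from FAD IgG did not depend detectably on region: 0 members and 0% of all genes passed in either direction, with 0 members and 258 genes at an unadjusted p under 0.05.

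**Figure D5:**
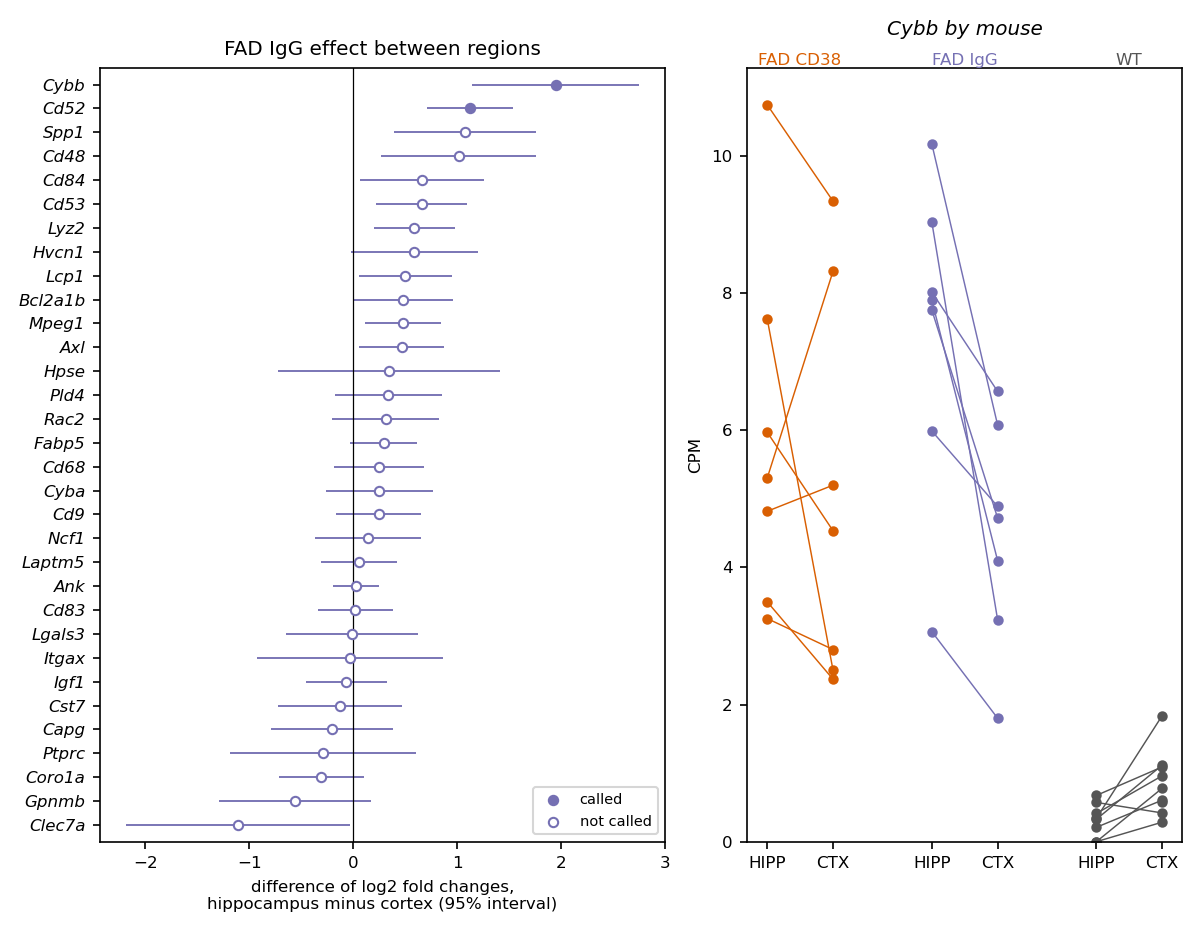
Left, the log2 fold change of FAD IgG over WT in hippocampus minus that in cortex (x axis) for 32 members, with limma 95% intervals; filled points passed an adjusted p of 0.05. Right, Cybb in CPM in hippocampus (HIPP) and cortex (CTX) of each mouse, joined by a line. Cybb and Cd52 passed, and all 7 FAD IgG lines are higher in hippocampus.

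Within groups, hippocampus was set against cortex of the same mice. In FAD CD38 mice Cd52 (0.45 ± 0.14), Mpeg1 (0.57 ± 0.12), Lcp1 (0.53 ± 0.16) and Bcl2a1b (0.47 ± 0.15) were higher in hippocampus and Ank lower (-0.28 ± 0.08), where 10.5% of all genes were higher and 11.8% lower. In FAD IgG mice Lgals3 (0.55 ± 0.19), Mpeg1 (0.44 ± 0.12) and Cybb (0.72 ± 0.24) were higher and 0 members lower, against 8.49% and 10.0% of all genes. In WT mice Clec7a (1.34 ± 0.47) and Gpnmb (1.06 ± 0.29) were higher, and 7 were lower, among them Cybb (-1.23 ± 0.32), Spp1 (-0.94 ± 0.24), Cd52 (-0.78 ± 0.15) and Lyz2 (-0.59 ± 0.14), against 13.5% higher and 13.1% lower of all genes. The shares of members called here were near or under those of all genes, apart from the 7 lower in WT. Calls in these fits were few and moved with single pools: leaving 1 pool or doubted mouse out gave 0 to 4 members higher in FAD IgG mice (0 without pool 6, 1 without pool 5 or pool 9), 2 to 5 in FAD CD38 mice and 1 to 3 in WT mice. The members lower in hippocampus of WT mice, 7 in the main fit, then numbered 5 to 9.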

How the data were processed

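The authors deposited raw counts, whole numbers for each gene in each well, as the values show. The submitters' processing notes name bcl2fastq 2.17 and STAR 2.5.3a; the sources used here do not give the build, annotation, counting program, strand setting or handling of molecular identifiers. Each deposited sample is a pool of mice, so group and region were read from the deposited sample sheet, matched to well names. The 35 members, the gene lists and the tests were chosen with earlier results of these data known. Members described in full were the 1 to 3 of smallest p per role in FAD IgG against WT, all members not called and all called between regions; from other lists at most 4 genes were named, by p in cortex, and some genes of these lists are not reported here.

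Each region had 1 model of group and pool over the 3 groups in edgeR 4.0.16 under R 4.3.3, with TMM scaling, the quasi-likelihood F test in its robust form, and the low-count filter of filterByExpr (counts of 10, totals of 15); FAD IgG mice were in 6 pools and the other groups in 7. Joint fits used limma 3.58.1 (voom, mouse as a correlated block, pool as a covariate). Tests were two-sided with Benjamini-Hochberg adjustment over all genes. Replicate pairs differed beyond sampling noise (lowest chi-square per degree of freedom 2.55), and p-values measure the spread between these mice. The code was tested on simulated counts. Alternatives were DESeq2 1.42.0, RLE factors, other filters, the pool left out, only the groups compared, voom quality weights, ribosomal RNA share as a covariate, the conflicting mouse as either group, and each pool left out.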

Additional observations from a re-analysis of the deposited data

Results flagged for a closer look

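Of 168 sets of mice (a member in 1 group and region, averaging 10 or more counts a well), 17 had a mouse far from the others by Dixon's ratio on log2 CPM, where chance alone flags about 1 in 20. Most were the same well. The hippocampus of FAD CD38 replicate 4 was low for Cst7 (66.5 CPM), Clec7a (2.80), Axl (8.401), Cd9 (81.2), Lyz2 (84.7), Ank (37.1), Fabp5 (39.2), Cd48 (0.700), Cd53 (14.0) and Laptm5 (86.1), and its cortex for Clec7a (4.27). The low values cover Ank and Fabp5, which did not pass against WT, and that hippocampus also had the fewest counts of its group (1428454). The hippocampus of WT replicate 9, with 20.6% ribosomal RNA, was low for Cd9 (22.2 CPM), Cd83 (8.65), Fabp5 (38.3) and Cyba (3.71). Apart from these, FAD IgG cortex replicate 7 was low for Gpnmb (11.1 CPM) and FAD IgG cortex replicate 5 high for Cd48 (11.8 CPM).

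A further pair of results differed between regions. The FAD IgG effect over WT was larger in hippocampus than in cortex by 1.13 log2 units for Cd52 and by 1.95 for Cybb, by the test of the difference itself. Of 16 alternatives Cd52 passed in 15 and Cybb in 11, and Cybb had 9 counts in WT hippocampus. Within WT mice both genes were lower in hippocampus than in cortex (Cd52 -0.78, Cybb -1.23). Within FAD IgG mice Cybb was called higher in hippocampus and Cd52 was not called.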

How the results depend on the processing

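Across 19 alternatives per region, 26 to 29 members were higher in FAD IgG cortex than in WT, 28 to 30 in hippocampus, 25 to 28 in FAD CD38 cortex and 25 to 30 in FAD CD38 hippocampus, and 0 were lower under any. Over all genes, 346 to 794, 414 to 956, 331 to 1032 and 354 to 1307 were higher, in the same order. Lower were 9 to 870 of all genes, out of 12163 to 20852 tested. FAD CD38 against FAD IgG gave 0 members in every alternative run, in cortex, hippocampus, their mean and their difference. Fits without FAD CD38 replicate 4 or without WT replicate 9 were chosen after seeing the data. The members whose FAD IgG effect was higher in hippocampus numbered 1 without the pool term and 0 to 2 with any pool or these mice left out. Hippocampus against cortex was the least stable: in WT mice 1 member was higher without the pool term and 1 to 3 in the leave-one-out fits. In FAD IgG mice 5 were higher with the pool left out, 7 with voom quality weights, 5 with the conflicting mouse as FAD IgG, and 0 to 4 with a pool or mouse left out. Of all genes, 1299 of 13447 were higher with the pool left out, 1691 with quality weights and 1382 of 13489 with that mouse as FAD IgG. In FAD CD38 mice 2 to 5 were higher with a pool or mouse left out, and 0 to 2 lower. Under a mean of at least 10 counts, and with the conflicting mouse counted as FAD IgG or as FAD CD38, 2 were lower. Of all genes, 1526 of 12411, 1631 of 13489 and 1961 of 13489 were lower under these, in that order. The cause of these shifts was not tested. Replicate numbers do not pair mice across groups; the pool, which groups share, was a covariate in the main fits, and both regions of 1 mouse were a block in the joint ones. Genes of a few CPM, such as Cybb, Hpse and Ptprc, rest on few counts.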
